A study of Rattus norvegicus with 4 samples.

Results

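The AP-1 and early growth response genes examined here are 10 genes of rat blood cells: Fos, Fosb, Fosl2, Jun, Junb, Jund, Atf3, Maff, Egr1 and Dusp1. They were chosen by their symbols in the deposited gene lists, which hold 25340 genes, with earlier results of these data known. Each library was droplet single-cell RNA-seq of blood from rats in a spinal cord injury study, with 1 library for each of 4 groups, which the labels call Sham, SCI, MSC-i.v and MSC-i.t. Per the labels, 40 rats, 10 a group, entered the study. Injury was produced by Allen's method, a weight dropped on the exposed cord, and the design text counts the sham group among the injured rats. MSC-i.t and MSC-i.v rats received mesenchymal stromal cells of umbilical cord origin into the spinal canal at 10000000 cells/kg or into a vein at 30000000 cells/kg. They were dosed 2 times, 72 hours and 7 days after injury. The labels give neither strain nor age, nor when blood was drawn, nor how many rats a library holds. The SCI data carry a different time tag in their deposited name from the other 3 libraries, so every SCI value below may also reflect a difference in sampling time, which cannot be told apart from the group.

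AP-1 is a dimer of basic leucine zipper proteins: a Jun protein pairs with another Jun protein, a Fos protein or an ATF protein and binds short DNA sites in promoters and enhancers. Many of its genes are immediate early genes, transcribed within minutes of a growth factor, cytokine or stress signal through MAP kinases and existing factors such as SRF, ELK and CREB, and their mRNAs decay quickly. Egr1 encodes a zinc finger factor switched on by the same signals, and Dusp1 encodes a nuclear phosphatase that switches MAP kinases off again. In leukocytes these genes respond to activation and also to handling, warming and enzymatic dissociation of cells.

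Promoter sequences show what 3 of the genes on which the results turn carry just upstream of transcription. RefSeq promoter windows of GRCr8 (250 bases before to 50 bases after the start) were held for 7 of the 10 genes, all but Fos, Jun and Atf3. Capitals mark the cyclic AMP response element TGACGTCA, its half-site TGACG on either strand, or the EGR site GCGTGGGCG or GCGGGGGCG. The Jund window is chr16:18769722-18770021 on the minus strand, the Dusp1 window chr10:17184603-17184902 on the plus strand and the Junb window chr19:40080876-40081175 on the plus strand.
Jund: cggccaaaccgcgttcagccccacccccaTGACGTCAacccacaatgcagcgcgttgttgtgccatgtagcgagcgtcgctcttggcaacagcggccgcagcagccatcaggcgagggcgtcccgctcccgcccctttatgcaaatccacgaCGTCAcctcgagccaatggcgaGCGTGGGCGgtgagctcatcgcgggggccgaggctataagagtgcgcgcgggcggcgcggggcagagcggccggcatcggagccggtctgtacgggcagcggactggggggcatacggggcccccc
Dusp1: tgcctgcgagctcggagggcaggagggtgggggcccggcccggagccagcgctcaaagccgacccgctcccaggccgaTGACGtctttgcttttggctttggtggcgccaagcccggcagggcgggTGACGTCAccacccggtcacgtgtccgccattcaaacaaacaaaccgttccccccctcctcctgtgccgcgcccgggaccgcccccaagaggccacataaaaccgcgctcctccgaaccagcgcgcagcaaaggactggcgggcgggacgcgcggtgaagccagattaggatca
Junb: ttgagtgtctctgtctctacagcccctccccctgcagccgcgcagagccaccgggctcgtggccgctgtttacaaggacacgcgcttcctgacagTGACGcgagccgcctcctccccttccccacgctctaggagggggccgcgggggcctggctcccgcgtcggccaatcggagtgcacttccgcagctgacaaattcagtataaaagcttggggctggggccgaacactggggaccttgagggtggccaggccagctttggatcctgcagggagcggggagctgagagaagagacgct
The Jund window holds 1 full cyclic AMP response element, whose first letter lies at position -221 from the start, a separate half-site at -98 and an EGR site at -76. The Dusp1 window holds 1 full element at -124 and a separate half-site at -172, and the Junb window holds a half-site at -155 alone. A full element contains both of its half-sites. It occurs in 1.83% of 33465 promoter windows of the same length, the half-site in 21.2% and the EGR site in 3.20%. The AP-1 site TGACTCA or its complement TGAGTCA, present in 4.63% of windows, was in none of the 7. The GC content was 69.7% in the Jund window, 68.0% for Dusp1 and 65.3% for Junb, against a median of 51.7% over all windows. These matches are descriptions of sequence only, since the data measure RNA and no factor's binding.

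Levels are given as CPM, the UMIs (unique molecular identifiers, each counting 1 captured RNA molecule) of a gene per 1000000 UMIs of all genes in the same class and library. Where values stand without library names, they follow the order Sham, SCI, then MSC-i.t, then MSC-i.v. Barcodes with at least 500 UMIs and 200 genes were kept: 8527 for SCI, 10573 for Sham, 11338 and 16998 for the MSC libraries, out of 63133881 to 91124523 UMIs per library. Marker genes gated them into T cells (5266 to 7927 a library), B cells (864 to 2839), NK cells (123 to 263), monocytes (258 to 1033), hemoglobin-rich erythroid barcodes (331 to 2137) and platelets (79 to 154). Gates were set on these same markers, so high levels of a gate's own markers follow from the gating and do not test it. The 8 B cell markers summed to 4297 to 4701 CPM in B-gated cells and to at most 76.5 CPM in the other gated leukocytes. NK markers, on which the T gate set no limit, reached 457 to 559 CPM in T-gated cells. Pairs of libraries shared 28 to 51 barcodes. With 1 library a group there was no replicate and no test: the 95% intervals printed are exact and cover nothing but counting error, and a difference is one between libraries. A gene was counted in a comparison if the libraries compared held at least 50 of its UMIs together in the class. It was called higher or lower at 2-fold. Because the minimum applies to the libraries together, a gene with few UMIs can be counted only because 1 of them is high. This holds for the shares of all genes as well. In these sums, more cells of a subtype and more RNA per cell cannot be told apart.

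Jund was the gene that set the SCI library apart. Its product, JunD, is the AP-1 subunit usually present in resting cells. In T-gated cells it was at 109 CPM in Sham against 429 CPM in SCI, with 105 CPM (MSC-i.t) and 99.1 CPM (MSC-i.v). The SCI library stood well above the other 3, which lay close together, and the log2 ratio of SCI over Sham was 1.98 (1.93 to 2.04), a 3.95-fold difference. In B-gated cells it was at 148, 529, 128 and 113 CPM in the same order of libraries, a log2 ratio of 1.84 (1.72 to 1.97). NK-gated cells held 101, 417, 117 and 110.4 CPM (2.05, from 1.69 to 2.43). Here too the SCI interval, 367 to 472 CPM, lay clear of the other 3. Monocyte-gated cells had the lowest level among leukocytes and a large difference, with 47.4 CPM in Sham against 234 CPM in SCI, with 46.8 CPM (MSC-i.t) and 46.0 CPM (MSC-i.v), a log2 ratio of 2.30 (2.0 to 2.61).

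The same gap stood in barcodes that are not leukocytes. In erythroid barcodes, which are dominated by hemoglobin RNA, Jund was at 7.33 CPM in Sham against 40.6 CPM in SCI, with 9.87 CPM (MSC-i.t) and 6.87 CPM (MSC-i.v), from 81, 129, 79 and 124 UMIs. The log2 ratio of SCI over Sham was 2.47 (2.06 to 2.89), the highest of the 5 classes, with the NK and monocyte intervals overlapping it. Free RNA, read from barcodes with under 100 UMIs, held Jund at 97.2 CPM in Sham against 265 CPM in SCI, with 107 CPM (MSC-i.t) and 69.7 CPM (MSC-i.v), a log2 ratio of SCI over Sham of 1.45 (1.25 to 1.65). Subtracting the UMIs expected from free RNA left the ratio at 1.99 in T-gated, 1.84 in B-gated, 2.06 in NK-gated and 2.33 in monocyte-gated cells. Erythroid barcodes also held T cell markers, summed over 7 genes to 12.4 CPM in Sham against 24.8 CPM in SCI, with 14.2 CPM (MSC-i.t) and 16.0 CPM (MSC-i.v), against 2459 to 2643 CPM in T-gated cells. Their part in the erythroid Jund level was not tested. In platelet-gated barcodes Jund had 3, 7, 0 and 1 UMIs, too few to compare.

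**Figure D1:**
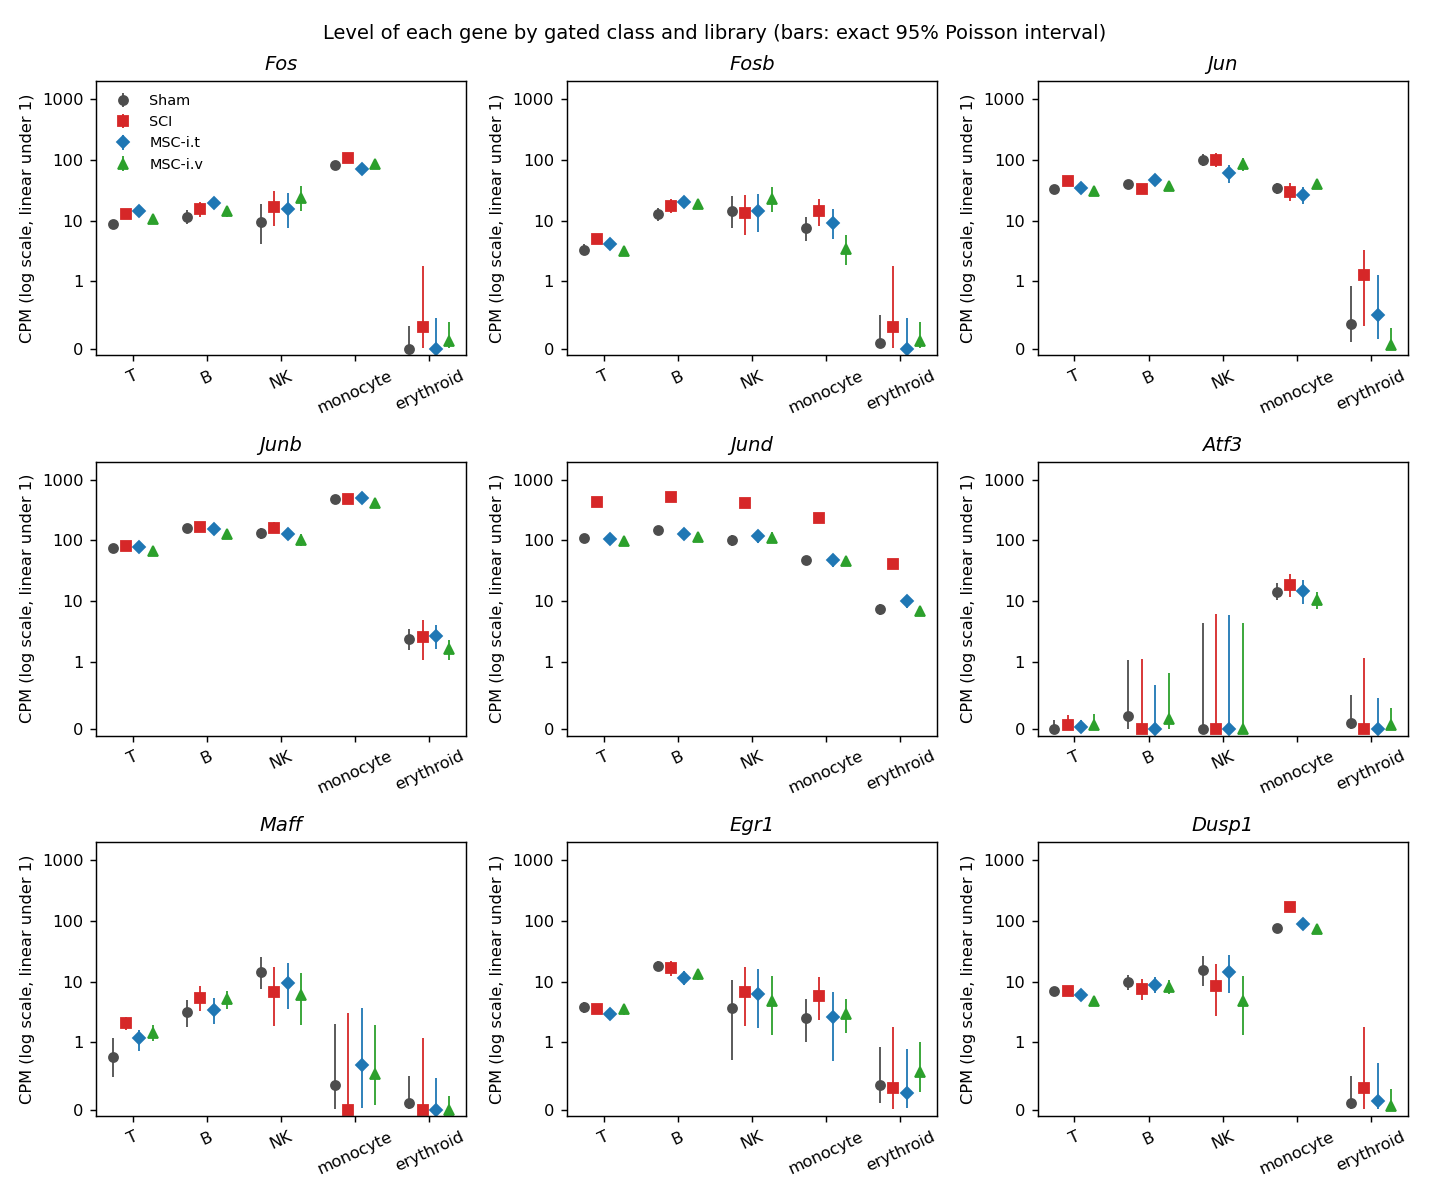
CPM of 9 of the 10 genes (vertical axis, logarithmic above 1 and linear below) in T, B, NK, monocyte and erythroid gates, 1 point per library (circle Sham, square SCI, diamond MSC-i.t, triangle MSC-i.v), with exact 95% Poisson intervals. Jund is the gene whose SCI point lies far above the other 3 in all 5 classes (429 CPM against 99.1 to 109 CPM in T), and Fosl2, with 2 UMIs in these classes, is not drawn.

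Jund was higher in every kind of cell into which these gates were divided after the data had been seen. T-gated cells with UMIs of Cd4 and none of Cd8a or Cd8b held 111 CPM in Sham against 469.8 CPM in SCI, with 126 CPM (MSC-i.t) and 111 CPM (MSC-i.v). The cells with Cd8a or Cd8b UMIs and no Cd4 held 91.4, 350.5, 86.5 and 88.3 CPM. Thus Cd4 cells lay above Cd8 cells within each library, and SCI above the other 3 in both. The share of T-gated cells with at least 1 Jund UMI, after each cell was thinned to 1000 UMIs, was 35.8% (34.5 to 37.1) for SCI and 10.3%, 10.5% and 9.86% for Sham, MSC-i.t and MSC-i.v. Unthinned, at medians of 5072, 5977, 5650 and 3726 UMIs a cell, these shares were 40.7%, 87.3%, 43.7% and 31.1%. In erythroid barcodes the thinned share was 5.14% for SCI and 0.549%, 0.876% and 0.608% for the other 3, at unthinned medians of 12153, 9565, 11746 and 8224 UMIs. The leukocyte shares therefore lay far above the erythroid share of their own library, and SCI was the highest library in both.

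Few of the genes that could be counted in all 5 classes shared this breadth. The shallow classes limit that set: 1167 genes were counted in erythroid barcodes, against 9612 in T-gated cells. Of 847 genes counted in all 5 classes, 7 (0.826%) were at least 2-fold higher in SCI than in Sham in every class, and 1 (0.118%) was lower in every class. Beside Jund these were Ube2m, Smap1, Glrx5, AABR07000398.1, Zfand5 and Btg1, named after their values were seen. Among them Ube2m (log2 ratios 2.12 to 3.05) and Smap1 (1.98 to 3.68) had a larger smallest ratio than Jund (1.84 to 2.47). Ube2m encodes a NEDD8-conjugating enzyme, Smap1 a GTPase-activating protein for ARF6 and Btg1 an antiproliferative factor.

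**Figure D2:**
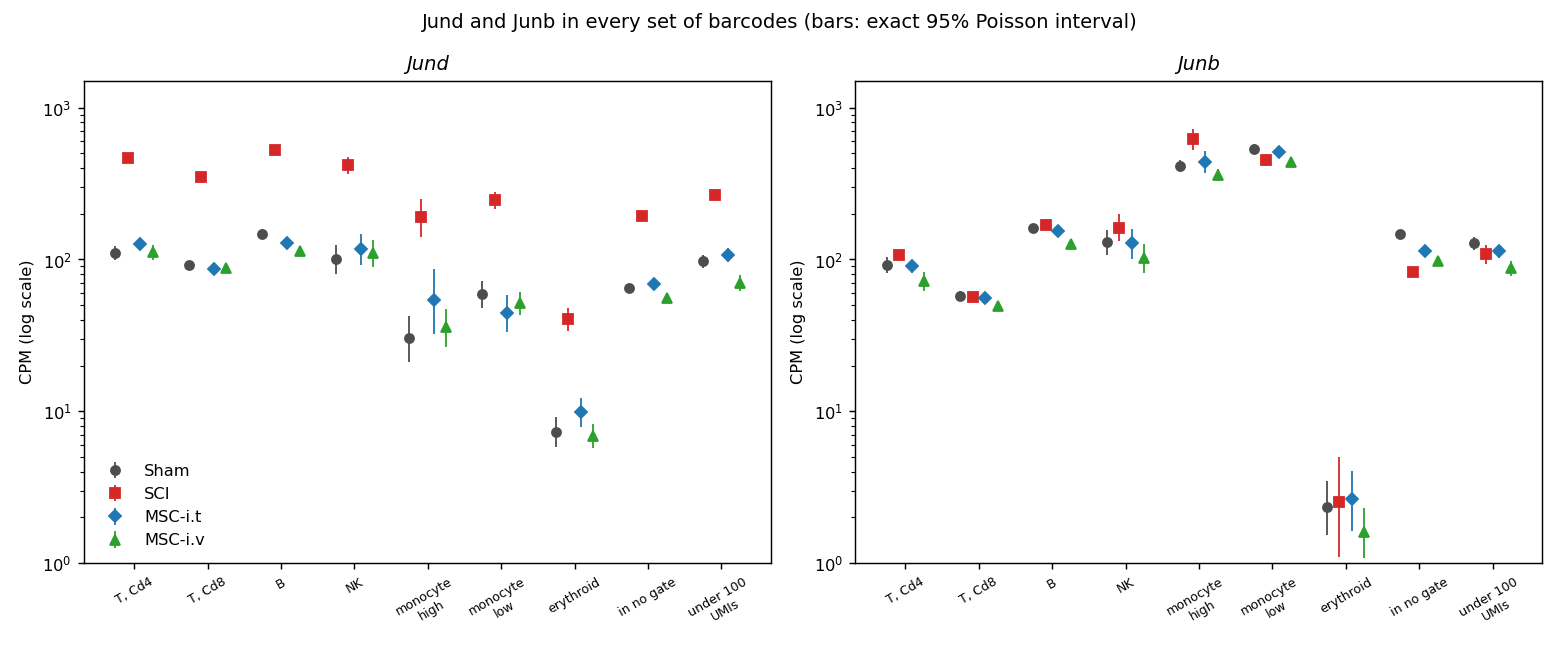
CPM of Jund (left) and Junb (right) on a logarithmic axis in T-gated cells split by Cd4 and Cd8, B and NK cells, monocytes high or low in Fcnb, Fn1 and Vcan, erythroid barcodes, barcodes in no gate and barcodes with under 100 UMIs, 1 point per library with exact 95% Poisson intervals. The SCI square of Jund lies above the other libraries in all 9 sets. That of Junb is the highest of the 4 in some sets, among them B cells, NK cells and high monocytes (621 CPM). It is the lowest among barcodes in no gate (82.9 CPM).

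Junb and Jun, the other Jun genes, did not share that gap. Junb encodes an inducible Jun protein. It was highest in monocyte-gated cells, at 485 CPM in Sham against 489 CPM in SCI, with 495 CPM (MSC-i.t) and 412 CPM (MSC-i.v). The 4 libraries lay close together, with a log2 ratio of SCI over Sham of 0.01 (-0.13 to 0.15). In T-gated cells Junb was at 74.0, 81.2, 76.5 and 66.5 CPM (0.13, from 0.05 to 0.22), in B-gated cells at 161, 169.5, 154 and 126 CPM (0.08) and in NK-gated cells at 130.5, 162, 128 and 102 CPM (0.31, from -0.10 to 0.72). MSC-i.v was the lowest library for Junb in all 5 classes. By the median over libraries the order was monocyte, B, NK and T, with erythroid barcodes lowest at 1.61 to 2.62 CPM, and the B and NK ranges overlapped. Each of the 4 leukocyte levels exceeded what free RNA would add, since free RNA held only 87.3 to 128 CPM of Junb and made up at most 4.24% of a leukocyte class.

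Jun, which encodes c-Jun, was highest in NK-gated cells, at 99.4 CPM in Sham against 100.4 CPM in SCI, with 59.9 CPM (MSC-i.t) and 85.2 CPM (MSC-i.v). The MSC-i.t library was the lowest, with a log2 ratio over Sham of -0.73 (-1.32 to -0.16) that rests on 38 UMIs. In T-gated cells Jun was at 33.0 CPM in Sham against 44.9 CPM in SCI, with 34.9 CPM (MSC-i.t) and 31.3 CPM (MSC-i.v). SCI was again the highest, but by a log2 ratio over Sham of 0.44 (0.32 to 0.56), well under 2-fold. In B-gated cells the levels were 39.8, 32.9, 46.2 and 36.5 CPM, and SCI was the lowest (-0.27, from -0.62 to 0.07). The B, T and monocyte ranges overlapped one another.

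The Fos family dimerises with Jun proteins. Fos, encoding c-Fos, was highest in monocyte-gated cells, at 81.9 CPM in Sham against 107 CPM in SCI, with 71.1 CPM (MSC-i.t) and 84.9 CPM (MSC-i.v), and the log2 ratio of SCI over Sham was 0.39 (0.07 to 0.71). In T-gated cells it was at 8.90, 12.7, 14.6 and 10.7 CPM. There the highest library was MSC-i.t, at log2 ratios of 0.71 (0.50 to 0.93) over Sham and 0.20 (0.02 to 0.38) over SCI. B-gated cells gave the same order, at 11.6, 15.4, 19.5 and 14.2 CPM, and NK-gated cells held 9.58 to 24.0 CPM with overlapping intervals. Erythroid barcodes had 0, 1, 0 and 2 Fos UMIs.

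Fosb, a Fos relative with an inducible and a long-lived truncated form, had its highest median level in B-gated cells, at 12.9, 17.5, 20.2 and 18.9 CPM, followed by NK-gated cells at 13.4 to 22.8 CPM. In T-gated cells it was at 3.33 CPM in Sham against 5.05 CPM in SCI, with 4.13 CPM (MSC-i.t) and 3.19 CPM (MSC-i.v), a log2 ratio of SCI over Sham of 0.60 (0.23 to 0.98). The Cd8 cells held 4.40, 8.82, 5.13 and 3.63 CPM and the Cd4 cells 0.646, 2.15, 5.16 and 4.81 CPM. Among Cd8 cells SCI was the highest library, with a ratio to Sham right at 2-fold (log2 ratio 1.00, from 0.51 to 1.51), whereas among Cd4 cells, with 2 to 24 UMIs a library, the MSC libraries were. Fosl2, encoding FRA-2, had 1 UMI in T-gated cells of MSC-i.t, 1 in monocyte-gated cells of MSC-i.v and 1 in Sham barcodes of no gate, and no others in these sets. In T-gated cells the 0 UMIs of Sham allow up to 0.106 CPM.

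The remaining zipper genes were low. Atf3, a stress-induced repressor of the CREB and ATF family, had its highest median in monocyte-gated cells, at 14.4 CPM in Sham against 18.3 CPM in SCI, with 14.5 CPM (MSC-i.t) and 10.3 CPM (MSC-i.v), from 22 to 40 UMIs. The 4 libraries overlapped in their intervals, and T, B, NK and erythroid classes held at most 2 UMIs per library. Platelet-gated barcodes had 2, 0, 0 and 1 Atf3 UMIs, and barcodes in no gate 25, 9, 12 and 16 UMIs (0.892 to 1.83 CPM). Maff, a small MAF protein without an activation domain, had its highest median in NK-gated cells, at 14.4, 6.69, 9.46 and 6.0 CPM from 4 to 12 UMIs. In T-gated cells it was at 0.780 CPM in Sham against 2.05 CPM in SCI, with 1.18 CPM (MSC-i.t) and 1.42 CPM (MSC-i.v), from 22, 71, 48 and 45 UMIs. SCI was the highest there, with a log2 ratio over Sham of 1.39 (0.69 to 2.16), a 2.63-fold difference at a very low level.

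Egr1 marked B-gated cells. It was at 18.1 CPM in Sham against 16.6 CPM in SCI, with 11.5 CPM (MSC-i.t) and 13.1 CPM (MSC-i.v) there, against 2.92 to 3.76 CPM in T-gated and 2.51 to 5.82 CPM in monocyte-gated cells. The B range lay above those of T, NK, monocyte and erythroid classes, and platelet-gated barcodes held 1 Egr1 UMI, in SCI. Within B cells both MSC libraries were below Sham, at log2 ratios of -0.66 (-1.14 to -0.19) for MSC-i.t and -0.47 (-0.90 to -0.03) for MSC-i.v, neither of them 2-fold, and SCI was at -0.13 (-0.64 to 0.37).

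Dusp1 was a monocyte gene, and the only other member called in that class. It was at 77.2 CPM in Sham against 169.6 CPM in SCI, with 88.9 CPM (MSC-i.t) and 74.4 CPM (MSC-i.v) in monocyte-gated cells. The SCI library was above the rest, with a log2 ratio over Sham of 1.14 (0.85 to 1.42), a 2.20-fold difference. The median gene of this class was itself at 0.15, and with that set to 0 Dusp1 stood at 0.99, just under 2-fold. The thinned share of monocytes with a Dusp1 UMI was 14.8% (10.7 to 19.8) for SCI, 5.39% (3.64 to 7.65) for Sham, and 8.31% and 7.63% for the MSC libraries. In unthinned erythroid barcodes the share was 0.110% in Sham and 0.302% in SCI, from 1 cell each. T-gated cells did not share the difference: Dusp1 was at 7.02, 6.90, 5.90 and 4.71 CPM there (log2 ratio of SCI over Sham -0.02, from -0.30 to 0.25). In B-gated cells it was at 9.84, 7.54, 8.86 and 8.21 CPM (-0.38, from -1.14 to 0.33, but 0.69 after thinning), so its direction was unsettled. Dusp1 had too few UMIs to be counted in NK-gated cells.

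**Figure D3:**
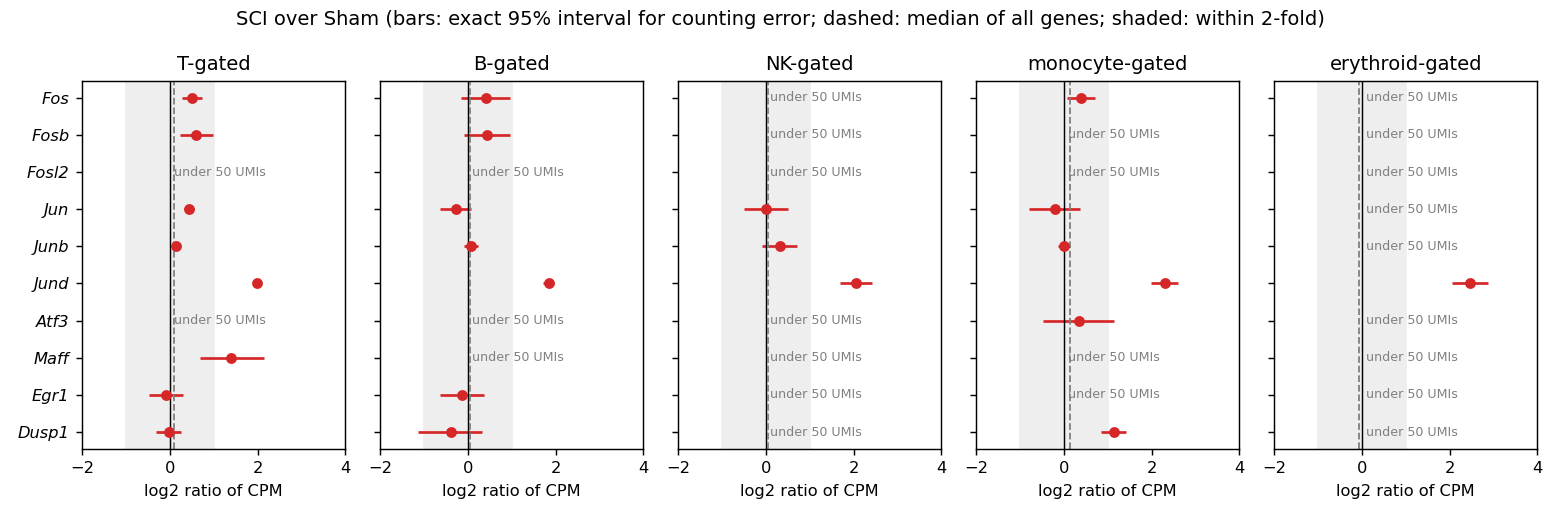
Log2 ratio of CPM, SCI over Sham (horizontal axis), of each gene in 5 gated classes, with exact 95% intervals for counting error; the shaded band spans 2-fold either way, the dashed line is the median of all counted genes, and genes under 50 UMIs are marked. Jund lies right of the band in all 5 classes (1.84 to 2.47), Maff in T (1.39) and Dusp1 in monocytes (1.14).

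Monocytes were also divided, after the data had been seen, at 10 UMIs of Fcnb, Fn1 and Vcan, genes of classical monocytes, because the libraries held different proportions of these cells: 31 of 258 were high in SCI, 146 of 546 in Sham, 47 of 330 in MSC-i.t, 230 of 1033 in MSC-i.v. High cells held more Fos, with 163 CPM in Sham against 268 CPM in SCI, with 232 CPM (MSC-i.t) and 179 CPM (MSC-i.v), than low cells, with 25.1, 63.5, 26.1 and 33.7 CPM. In the low cells SCI exceeded Sham 2.53-fold (log2 ratio 1.34, from 0.74 to 1.95), and in the high cells by 0.72 (0.30 to 1.12). Both differences were larger than the 0.39 of all monocyte-gated cells, in which SCI held fewer high cells. Jun showed the same split of levels, at 73.1, 101, 87.6 and 91.5 CPM in high cells and 7.33 to 13.0 CPM in low cells. Over all monocyte-gated cells Jun was at 34.5, 29.9, 26.3 and 40.7 CPM, a log2 ratio of SCI over Sham of -0.20 (-0.80 to 0.36), although it was at 0.47 (-0.23 to 1.12) in the high cells and the low cells, with 10 and 12 UMIs, held too few to compare. Dusp1 was at 79.5, 185, 75.0 and 82.9 CPM in low cells (log2 ratio of SCI over Sham 1.22, from 0.88 to 1.56), and only the SCI library stood apart. In high cells it was at 74.0, 113, 139 and 58.8 CPM, with MSC-i.t the highest and a log2 ratio of SCI over Sham of 0.61 (-0.06 to 1.23). Junb was higher in SCI than in Sham in high cells, 621 against 413 CPM (0.59, from 0.32 to 0.85), and lower in low cells, 453 against 536 CPM (-0.24, from -0.41 to -0.07). Jund was higher in SCI in both, at log2 ratios of 2.64 and 2.05. Neutrophil markers summed to 2803 CPM in Sham against 509 CPM in SCI, with 744 CPM (MSC-i.t) and 3466 CPM (MSC-i.v) over all monocyte-gated cells, with 5 to 8 of the 9 genes detected, and to 2467, 453, 199 and 4807 CPM in the low cells. Ltf had no UMI in monocyte-gated cells of any library, and Ngp had none in those of SCI and MSC-i.t. The part of neutrophils in the monocyte values was not tested.

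**Figure D4:**
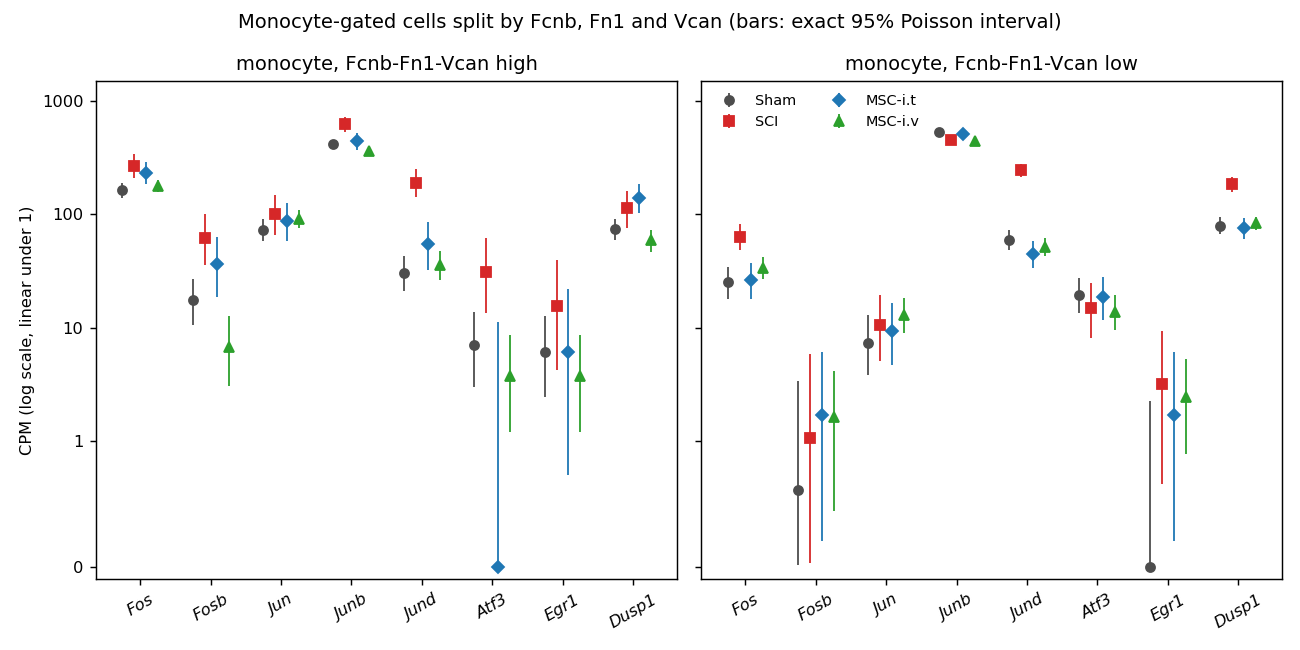
CPM of 8 genes (vertical axis, logarithmic above 1 and linear below) in monocyte-gated cells with at least 10 UMIs of Fcnb, Fn1 and Vcan (left) and with fewer (right), 1 point per library with exact 95% Poisson intervals. Dusp1 and Fos of the SCI library stand above the other 3 in the low cells (185 and 63.5 CPM), while in the high cells MSC-i.t is above SCI for Dusp1 (139 against 113 CPM).

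Few of the genes passed 2-fold in SCI over Sham, and the counts are read against all counted genes. In T-gated cells 2 of the 8 members counted were at least 2-fold higher (Jund and Maff), against 5.09% of all genes. In the same cells 0 were lower, against 0.895%. Maff, with 22 UMIs in Sham and 71 in SCI, was counted largely through SCI, so its count and its call are not independent. In B-gated cells 1 of 7 was higher (Jund), against 4.16%, and 0 lower, against 0.800%. In NK-gated cells 1 of 3 was higher (Jund), against 3.61%, and 0 lower, against 0.673%. Monocyte-gated cells had 2 of 6 higher (Jund and Dusp1), against 4.60%, and 0 lower, against 1.30%. In erythroid barcodes the single member counted, Jund, was higher, against 5.31%, where 7.28% of genes were lower. The median log2 ratio of the members counted was 0.48 in T-gated, 0.08 in B-gated, 0.31 in NK-gated and 0.37 in monocyte-gated cells, beside 0.09, 0.04, 0.05 and 0.15 for all genes. Of the members other than Jund, only Maff in T-gated and Dusp1 in monocyte-gated cells passed 2-fold in these 5 classes.

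The question of the study was how the route of cell delivery compares, and no member counted in the 5 classes was 2-fold apart between an MSC library and Sham. The largest log2 ratios were those of Maff in T-gated cells of MSC-i.v (0.87, from 0.10 to 1.67) and Fos in B-gated cells of MSC-i.t (0.75, from 0.28 to 1.23). Fosl2 was counted in no class, and 7 of the 10 genes were not counted in NK-gated cells. In MSC-i.t over Sham 0 of 8, 7, 3, 6 and 1 members counted in T, B, NK, monocyte and erythroid classes passed 2-fold either way, against 0.753%, 0.708%, 0.991%, 1.17% and 3.11% of all genes. In MSC-i.v over Sham 0 of 8, 8, 3, 6 and 2 did, against 0.509%, 0.645%, 0.860%, 0.594% and 1.90%. The log2 ratio of Jund over Sham ran from -0.21 (B) to 0.43 (erythroid) in MSC-i.t and from -0.39 (B) to 0.13 (NK) in MSC-i.v. Set against SCI instead, Jund was lower in MSC-i.t in all 5 classes, at log2 ratios of -2.03 in T, -2.05 in B, -1.84 in NK, -2.32 in monocyte and -2.04 in erythroid classes. It was the only member called of 8, 7, 3, 5 and 1 counted, where 6.20%, 5.33%, 4.75%, 5.09% and 10.8% of all genes passed 2-fold either way. In MSC-i.v over SCI Jund was at -2.11, -2.23, -1.92, -2.34 and -2.56 in the same classes, and Dusp1 was also called in monocyte-gated cells, at -1.19 (-1.45 to -0.92). Members called were 1 of 8, 1 of 8, 1 of 3, 2 of 6 and 1 of 1, against 5.61%, 4.71%, 4.93%, 5.51% and 11.7%. These comparisons share the SCI library with SCI over Sham and are no separate evidence on it.

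Directly between the routes, MSC-i.t over MSC-i.v, 0 of 8, 8, 3, 6 and 2 members counted in the 5 classes passed 2-fold either way, against 1.5%, 0.911%, 1.21%, 1.53% and 5.59% of all genes. Jund differed by log2 ratios of 0.08 (0.02 to 0.15) in T-gated, 0.17 in B-gated, 0.08 in NK-gated, 0.02 (-0.40 to 0.43) in monocyte-gated and 0.52 (0.10 to 0.94) in erythroid classes. Fos was higher in MSC-i.t than in MSC-i.v by 0.45 (0.26 to 0.65) in T-gated and 0.46 (0.05 to 0.87) in B-gated cells. Jun was lower in MSC-i.t by a log2 ratio of -0.63 (-1.17 to -0.12) in monocyte-gated cells. In the high monocytes taken by themselves Dusp1 was higher in MSC-i.t by 1.24 (0.68 to 1.78), where 0.870% of genes were at least 2-fold higher.

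The wider families were examined through 4 lists of related genes. Of 21 other AP-1 subunits and zipper partners, 15 were counted in T-gated cells for SCI over Sham. Of these 1 was higher, Mafg (1.36), a small MAF, against 5.09% of all genes, and 1 lower, Nfe2 (-1.03), an erythroid and megakaryocyte partner of small MAFs, against 0.895%. Creb1 (0.33) and Atf7 (-0.14) were next. In monocyte-gated cells 1 of 10 counted was higher, against 4.60% of all genes, and 0 were lower, against 1.30%. The higher gene is among those not reported here. Mafg (0.49), Atf4 (-0.08), a translationally induced stress factor, and Atf1 (-0.17) lay within 2-fold there. The list's median was 0.02 in T-gated cells. Mafg was also the 1 gene higher of 12 counted in B-gated cells, against 4.16% of all genes, and 0 of 3 in NK-gated and 0 of 2 in erythroid classes were higher, against 3.61% and 5.31%.

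Of 32 other early response genes, 30 were in the gene lists. In T-gated cells 3 of 24 counted were higher in SCI, against 5.09% of all genes. They were Klf2, a factor of T cell quiescence and trafficking, at 2.52 CPM in Sham and 31.0 CPM in SCI (3.62), Btg1 (1.35) and the RNA-binding Zfp36l2 (1.22), which falls outside the naming rule and was picked after its value was seen. The lowest were the nuclear receptor Nr4a1 (-0.75) and Klf4 (-0.42). In monocyte-gated cells 1 of 15 was higher, against 4.60% of all genes: Btg1 (1.05), closely followed by Btg2 (0.96), and the lowest were Klf10 (-0.26) and Gadd45b (-0.14). The list's median there was 0.62, beside 0.15 over all genes, and in T-gated cells it was 0.21. In B-gated cells the same 3 genes as in T-gated cells were higher of 18 counted (4.16% of all genes), in NK-gated cells Btg1 and Zfp36l2 were higher of 10 (3.61%), and in erythroid barcodes Btg1 was higher of 3 (5.31%).

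None of the other dual-specificity phosphatases passed 2-fold in SCI over Sham, with 8 of 10 counted in T-gated and 5 in monocyte-gated cells. Of all genes, 5.09% were higher and 0.895% lower in T-gated cells, and 4.60% and 1.30% in monocyte-gated cells. With so few genes counted, none passing is near those shares. The nearest were Dusp2 (0.94), a phosphatase of activated lymphocytes, and Dusp12 (0.29) in T-gated cells, and Dusp5 (0.80) and the ERK phosphatase Dusp6 (0.20) in monocyte-gated cells. Dusp22 was among the lowest in both (-0.32 and -0.21), with Dusp10 (-0.13) in T-gated and Dusp7 (-0.23) in monocyte-gated cells. Among 20 upstream kinases and factors, Braf (1.23, from 49 UMIs in SCI and 17 in Sham) was the only one of 16 higher in T-gated cells. The share of all genes was 5.09%. Braf was counted largely through its SCI UMIs, so its count and its call are not independent. The JNK gene Mapk9 (0.57) followed, with Elk1 (-0.15) and Mapk3 (-0.06) lowest. In monocyte-gated cells 1 of 11 was higher, against 4.60% of all genes: Elk3 (1.02), a ternary complex factor that binds with SRF, and Srf (0.78) followed. Elk1 (-0.19) and Map2k1 (-0.12) were lowest there.

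Genes whose levels closely resembled each member's over 24 sums (4 libraries by 6 classes) are given as a description, since sums of a library share its depth and large class differences dominate. For Jund they were Hnrnpd (Pearson r = 0.913), Ppp1r14b (0.912) and Cdk13 (0.904), the lowest set of correlations after Fosl2, whose 2 UMIs allow no comparison (Cfd, Tmem176b and S100a9, at 0.492 to 0.527). For Junb they were Pacsin2 (0.983) and Far1 (0.980), for Dusp1 Asah1 (0.973), Prr29 (0.972) and Fcho2 (0.964), and for Fos Vav3 (0.980) and Prkag2 (0.980). Jun was closest to Slc4a7 (0.982), Mrpl45 (0.982) and Ivd (0.981), Fosb to Atg16l2 (0.981), Cyth3 (0.974) and Tec (0.973), Maff to Osbpl5 (0.973), Slamf7 (0.970) and Ksr1 (0.966), Egr1 to Snx8 (0.971), Usf3 (0.945) and Fmnl3 (0.939), and Atf3 to Nilr1 (0.952), Mcemp1 (0.941) and Capn3 (0.932).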

How the data were processed

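Blood from 4 groups of rats was profiled by droplet single-cell RNA-seq. Each deposited matrix holds whole-number counts of UMIs, with Cell Ranger 4.0 named in its header. The submitters' processing notes name mRatBN7.2 as the build. The labels' protocol describes a bulk RNA preparation, which these matrices do not match.

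Kept barcodes had at least 500 UMIs and 200 genes. Gates required at least 3 T, 3 B, 5 NK, 20 monocyte or 20 platelet marker UMIs with limits on other classes' markers, and at most 5% hemoglobin UMIs; erythroid barcodes had at least 50%. Mixed doublets fail only where a limit covers the second class. The T and B gates set no limit on NK markers, and no gate limited neutrophil markers, so doublets with those cells can pass. No doublet caller was run. The gates were chosen with the marker counts in view. Between 0% and 10.5% of a class lay at its gate's minimum or next to it. Sums of UMIs were formed for each class of each library, and their ratios have exact conditional binomial intervals, thinned shares exact Clopper-Pearson intervals. Ratios and intervals were tested on simulated Poisson sums. The intervals assume that model, so the simulation checked the calculation and not how the intervals hold in these data. Members and lists were chosen with earlier results of these data known. Named genes are all members, the 2 highest and 2 lowest of each list in T-gated and monocyte-gated cells, and the 3 genes most like each member by log2(CPM + 1). A few genes that this rule names are not reported here. Of the list genes, Ier2, Mcl1 and Mrtfb were not matched. Alternatives changed filters, gates, scaling, depth, free RNA and fold. Python 3.11.15, numpy 2.4.6, scipy 1.17.1 and pandas 2.3.3 were used.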

Additional observations from a re-analysis of the deposited data

Results flagged for a closer look

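Some genes lay on opposite sides of 0 in different cells under the same comparison, with intervals clear of 0; none of these differences between classes was tested. Junb in SCI over Sham had a log2 ratio of 0.13 in T-gated cells and 0.59 in monocytes high in Fcnb, Fn1 and Vcan, but -0.24 in monocytes low in these genes. Fos in MSC-i.t over SCI was at 0.20 in T-gated cells, at -0.59 in all monocyte-gated cells and at -1.28 in the low monocytes. Jun in MSC-i.t over SCI was at 0.49 in B-gated cells, at -0.36 in T-gated and at -0.75 in NK-gated cells. Jun in MSC-i.t over MSC-i.v was at 0.16 in T-gated and 0.34 in B-gated cells and at -0.63 in monocyte-gated cells. Barcodes in no gate, which enter none of the counts of members above, also held more Jund in SCI than in Sham, 194 against 64.8 CPM, a log2 ratio of 1.58 (1.46 to 1.70), while Junb was lower there, 82.9 against 147 CPM (-0.83, from -0.95 to -0.70), and the median of all genes was -0.60.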

How the results depend on the processing

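Of 672 alternative counts of members past 2-fold, 645 stayed within 1.5 times the reported count and 27 did not. Each alternative kept the members counted in the whole class. In SCI over Sham, monocyte-gated cells had 1 member higher with the median ratio of genes set to 1, as Dusp1 fell to 0.99, and 1 lower after thinning to 1000 UMIs. In MSC-i.t over SCI, a fold of 1.5 gave 2 members lower in T-gated, 2 in NK-gated and 3 in monocyte-gated cells, the mean of CPM over cells gave 2 in NK-gated and 2 in monocyte-gated cells, and the low monocytes alone (an alternative added after seeing the data) gave 3. With the minimum of 50 UMIs applied anew, the high monocytes alone had 1 member higher in SCI over Sham and 1 lower in MSC-i.v over SCI, against 2 each in all monocyte-gated cells. In MSC-i.v over SCI, a fold of 1.5 gave 2 lower in T-gated and 2 in NK-gated cells, and thinning gave 2 in B-gated cells. In MSC-i.t over Sham, a fold of 1.5 gave 2 higher in T-gated, 2 higher and 1 lower in B-gated and 1 lower in NK-gated cells; thinning and the mean of CPM each gave 1 lower in NK-gated cells. In MSC-i.v over Sham, a fold of 1.5 gave 1 higher in T-gated and 1 in B-gated cells, and thinning gave 1 higher in T-gated, 1 lower in B-gated and 1 lower in monocyte-gated cells. In MSC-i.t over MSC-i.v, a fold of 1.5 gave 1 lower in B-gated, 1 lower in monocyte-gated and 1 higher in erythroid classes, and thinning and the high monocytes alone each gave 1 higher in monocyte-gated cells. The cause was not tested.

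Jund in SCI over Sham ran from 1.90 to 2.10 in T-gated, 1.80 to 1.95 in B-gated, 1.91 to 2.10 in NK-gated, 1.81 to 2.64 in monocyte-gated and 2.25 to 3.23 in erythroid classes, and Dusp1 in monocyte-gated cells from 0.61 (high monocytes only) to 1.70 (thinned). Of 1620 alternative single values, 1495 stayed within the counting interval and 125 did not. These values include thinned shares of cells with a Jund UMI set against unthinned intervals, and thinning lowers such shares by its nature. Although 0 called ratios changed sign, some uncalled ones did. In SCI over Sham, Jun in NK-gated and Junb in monocyte-gated cells each did so in 5 alternatives. Free RNA was not subtracted for erythroid barcodes. No paired analysis was possible because each group has 1 library. Depth limited SCI over Sham to 3 members in NK-gated cells, 1 in erythroid and 0 in platelet-gated barcodes.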
